A study of Mus musculus with 6 samples.

Results

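The miR-23, miR-27 and miR-24 microRNAs are made from 2 paralogous gene clusters, and their 10 listed mature arms were followed here in mouse pancreas. The arms were chosen by name from a table of 1414 rows, each holding the read counts of 1 mature arm, and all 10 were found. Pancreas came from C57BL/6 mice of 22 to 25 g that received 7 intraperitoneal injections 1 hour apart. The control group (replicates 43, 44 and 45) was given saline. The model group (replicates 56, 57 and 59) received caerulein, a peptide that acts like cholecystokinin on acinar cells, at a stated 50 mg/kg, with lipopolysaccharide (LPS), which is shed from bacterial outer membranes, added to the last injection. The treatment labels list saline as a further item for both groups. Tissue was collected 24 hours after the first injection, with 3 libraries per group. Caerulein and LPS were given only together, and their separate effects cannot be told apart. The labels do not tie each library to its own mouse, so p-values measure only the spread between these libraries.

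A miRNA hairpin yields a 5p and a 3p arm, and the arm loaded into Argonaute recognises messenger RNAs mainly through its seed, bases 2 to 8. In each of these clusters the 3p arm is the usual guide strand. The clusters are broadly expressed, with known roles in endothelial cells and vessel growth, in fat cell differentiation (miR-27) and in T cell responses. The 5 guide arms are shown first because their counts carry nearly all of the signal and because the paralogues differ at a single base. Sequences are those of the deposited table, 5′ to 3′, with the seed in capitals.
miR-23a-3p: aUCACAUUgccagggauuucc
miR-23b-3p: aUCACAUUgccagggauuacc
miR-27a-3p: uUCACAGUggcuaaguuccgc
miR-27b-3p: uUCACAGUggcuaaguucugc
miR-24-3p: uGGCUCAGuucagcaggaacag
The seed UCACAUU was common to both miR-23 guides and the seed UCACAGU to both miR-27 guides. Counted from 1 at the 5′ end, miR-23a-3p and miR-23b-3p differed by U19A, and miR-27a-3p and miR-27b-3p by C19U. These pairs were identical over their first 18 bases, so a read ending before position 19 could not be assigned to either paralogue. The sources used here do not say how such reads were counted.

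The a cluster holds Mir23a, Mir27a and Mir24-2 within 404 bp of chromosome 8 (GRCm38.p6, chr8:84208518-84208921, plus strand). Of its hairpins, only Mir24-2 overlapped another gene on the plus strand, an exon of the long noncoding Gm26532 in GENCODE M21. The b cluster holds Mir23b, Mir27b and Mir24-1 within 792 bp of chromosome 13 (chr13:63300484-63301275, plus strand). It lies inside the protein-coding 2010111I01Rik on the same strand, where Mir23b was intronic while Mir27b and Mir24-1 overlapped annotated exons, and inside an intron of Fancc on the opposite strand. Both clusters make the same miR-24-3p, so its counts have no single origin, whereas the 5p arms of the miR-24 hairpins differ in sequence. The hairpins from RefSeq (GRCm38.p6) are shown with both mature arms in capitals, the shared 3p arm second.
Mir24-1: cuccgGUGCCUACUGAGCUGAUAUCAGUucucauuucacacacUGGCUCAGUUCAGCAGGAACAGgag
Mir24-2: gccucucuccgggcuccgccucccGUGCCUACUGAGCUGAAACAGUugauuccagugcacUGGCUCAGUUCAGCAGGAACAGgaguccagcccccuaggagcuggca
RefSeq held a mature entry for 9 of the 10 arms, all 9 identical to the deposited sequence.

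In the pancreas of caerulein and LPS treated mice, miR-24-3p and miR-24-2-5p were higher in TMM-scaled level in every model library than in every control. The b-cluster arms miR-23b-3p, miR-27b-3p and miR-27b-5p were lower in every model library than in every control. However, no arm passed the test across all rows. Of the 5p arms made with miR-24-3p, miR-24-2-5p is specific to the a cluster, while miR-24-1-5p of the b cluster overlapped between groups. The guides miR-23a-3p and miR-27a-3p of the a cluster overlapped between groups, through control replicate 45, whose values were the lowest of the controls. Levels are TMM-scaled CPM (each count over a library size adjusted so that the typical miRNA is comparable between libraries). Differences are log2 fold changes, model over control, from edgeR's quasi-likelihood test with Benjamini-Hochberg adjustment over 499 tested rows and a threshold of 0.05. All 10 arms were tested and 0 were called, where 1.20% of tested rows were called. DESeq2 called 1 arm, miR-27b-3p. At an unadjusted p under 0.05, 4 of 10 arms differed (2 higher and 2 lower), against 23.8% of tested rows. The groups did not overlap for 5 of 10 arms, against 31.1% of tested rows. Of these, 2 were higher and 3 lower in the model group, against 14.4% and 16.6% of tested rows, and such counts are too small to set the clusters apart from the rest. The median log2 fold change was -0.11 over the 10 arms and 0.0050 over all tested rows. Over 91 abundant tested rows, a band of levels that holds the guide arms, it was -0.22. In that band 24 rows were lower and 7 higher in the model group without overlap.

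**Figure D1:**
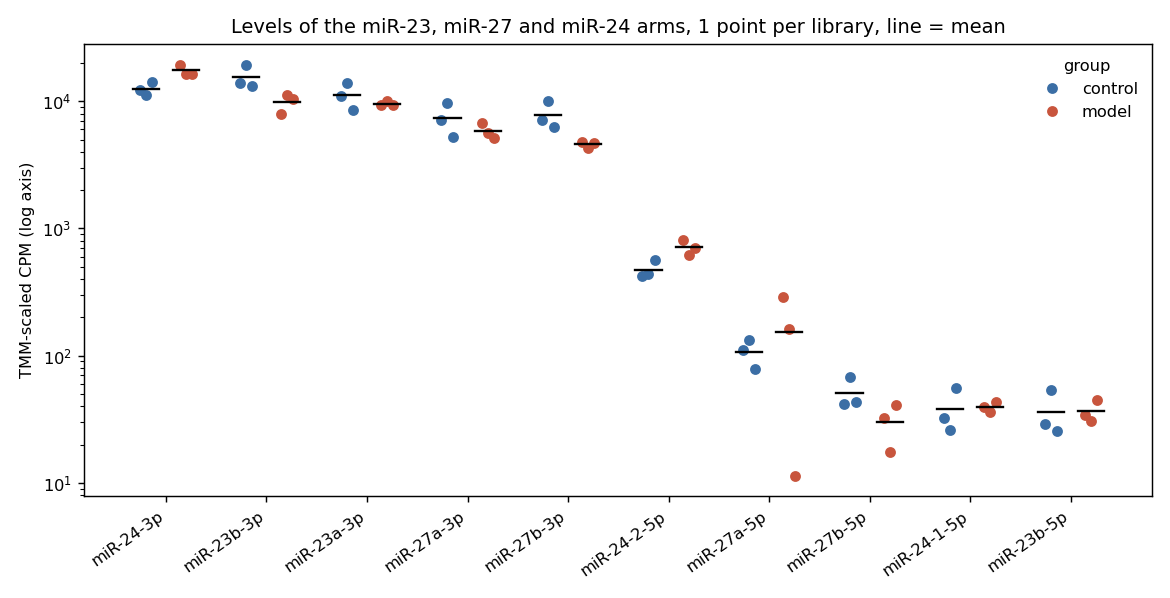
TMM-scaled CPM (log axis) of the 10 arms, 1 point per library, control in blue and model in red, with a line at each group's mean. The 5 guide arms sit between 4291 and 19419.6 CPM, and model points lie above all controls for miR-24-3p and miR-24-2-5p and below them for miR-23b-3p, miR-27b-3p and miR-27b-5p.

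The arm made by both clusters is mmu-miR-24-3p, which has known roles in cell cycle exit, endothelial survival and immune regulation. Control replicates 43, 44 and 45 held 12261, 11102 and 14052 CPM, and model replicates 56, 57 and 59 held 19419.6, 16463 and 16470.0 CPM. All 3 model libraries were above all 3 controls, and replicate 56 was the highest. Group means were 12472 ± 1486 and 17451 ± 1705 CPM (SD, n = 3 each). The log2 fold change was 0.48 (SE 0.14, 95% interval 0.15 to 0.81, edgeR adjusted p = 0.102), or 1.40-fold. Its rank by counts among all rows was 27 to 33 in control and 19 to 22 in model libraries. The deposited counts rested on 22807 to 55102 reads per library, so counting error was small beside the spread between libraries.

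The miR-24-2 hairpin also gave mmu-miR-24-2-5p, a 5p arm specific to the a cluster, with far fewer counts. It reached 426, 438 and 560.1 CPM in controls and 807, 622 and 699 CPM in model libraries, again without overlap. Its log2 fold change was 0.58 (SE 0.23, 95% interval 0.053 to 1.11, edgeR adjusted p = 0.170). Its b-cluster counterpart mmu-miR-24-1-5p had fewer still, with 32.4, 25.8 and 55.2 CPM in controls and 39.7, 35.9 and 43.3 CPM in model libraries. Model values of miR-24-1-5p lay within the control range, with a log2 fold change of 0.074 (SE 0.32, 95% interval -0.68 to 0.83, edgeR adjusted p = 0.934). An interval of that width spans both a fall and a rise as large as that of miR-24-3p. Both 5p arms have the seed UGCCUAC and their first 16 bases in common.

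A hairpin annotated on the opposite strand of Mir24-2, Mir3074-2 (chr8:84208825-84208907, minus strand), shares its sequence with miR-24-2-5p in reverse complement. The pair is shown because counting that ignores strand cannot separate them, with the stretch of miR-24-2-5p that is complementary to miR-3074-2-3p printed below it.
miR-3074-2-3p: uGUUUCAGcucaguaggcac
miR-24-2-5p: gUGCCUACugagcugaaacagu
complementary stretch of miR-24-2-5p: gugccuacugagcugaaaca
All 20 bases of miR-3074-2-3p were complementary to bases 1 to 20 of miR-24-2-5p. Its counts were 713, 638 and 506 in control and 1111, 1314 and 1148 in model libraries, which amounted to 49.1 to 71.0 per 100 counts of miR-24-2-5p. The log2 fold change of miR-3074-2-3p was 0.38 (SE 0.21, edgeR adjusted p = 0.318), with all model libraries above all controls in CPM. It was 0.10 with upper quartile factors and 1.17 with the authors' library totals, where it was called (edgeR adjusted p = 0.0296). The other arms annotated opposite miR-24, miR-3074-1-3p and miR-3074-5p, had 0 to 12 and 4 to 7 counts per library. A run of 20 bases of miR-3074-5p was complementary to bases 1 to 20 of miR-24-3p, which had 22807 to 55102 counts. Mixing of strands in the counts was not tested. The sources used here do not say whether the counting used strand.

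Among the miR-23 guides, known for roles in endothelial cells and in glutamine metabolism, the b-cluster form is given first. The level of mmu-miR-23b-3p was at 13883, 19247 and 13276 CPM in controls and at 7974, 11121 and 10321 CPM in model libraries. Every model value was below every control, with replicate 56 the lowest and control replicate 44 the highest. The log2 fold change was -0.66 (SE 0.20, 95% interval -1.12 to -0.20, edgeR adjusted p = 0.111), or 0.634-fold. Its paralogue mmu-miR-23a-3p had 11045, 13929 and 8517 CPM in controls and 9367, 10024 and 9299 CPM in model libraries, so the model values lay inside the control range but below control replicates 43 and 44. Its log2 fold change was -0.22 (SE 0.19, 95% interval -0.66 to 0.22, edgeR adjusted p = 0.558). It was -0.41 without control replicate 45 and -0.044 without control replicate 44. The passenger mmu-miR-23b-5p, at 29.3, 54.0 and 25.8 CPM in controls and 34.1, 30.7 and 45.1 CPM in model libraries, overlapped as well (log2 fold change 0.010, SE 0.35, edgeR adjusted p = 0.991). For miR-23a the 5p arm, which is not among the 10, had 3 to 18 counts per library and was not tested.

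The miR-27 guides, known for restraining fat cell differentiation and lipid genes, are given in the same order. The level of mmu-miR-27b-3p was at 7114, 10098 and 6299 CPM in controls and 4785, 4291 and 4682 CPM in model libraries. The model libraries lay close together and below all controls, at means of 4586 ± 261 against 7837 ± 2000 CPM (SD, n = 3 each). This arm had the lowest p of the 10, with a log2 fold change of -0.77 (SE 0.20, 95% interval -1.24 to -0.30, edgeR adjusted p = 0.0802), or 0.585-fold. Its paralogue mmu-miR-27a-3p had 7175, 9742 and 5206 CPM in controls and 6721, 5603 and 5177 CPM in model libraries. Only control replicate 45 overlapped the model values, and the log2 fold change was -0.34 (SE 0.24, 95% interval -0.90 to 0.22, edgeR adjusted p = 0.448). It was -0.56 without control replicate 45 and -0.098 without control replicate 44. The related miR-128-3p, whose sequence carries the miR-27 seed shifted by 1 base, was at 232 to 265 CPM in controls and 250.3 to 268 CPM in model libraries (edgeR adjusted p = 0.964; log2 fold change 0.030, SE 0.21).

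The miR-27 passenger arms were scarce, and 1 library set the spread of one of them.
miR-27a-5p: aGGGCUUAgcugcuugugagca
miR-27b-5p: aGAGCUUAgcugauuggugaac
They are printed because they differ at 8 positions, so their reads are easier to tell apart than those of the guides. The passenger mmu-miR-27a-5p was counted 286, 274 and 132 times in controls and 784, 527 and 38 times in model replicates 56, 57 and 59. In CPM the model values were 291, 162 and 11.4 against 79.2 to 133 in controls, so 2 model libraries were above all controls and replicate 59 was below all. The edgeR log2 fold change was 0.52 (SE 0.91, adjusted p = 0.790). It became 1.11 without model replicate 59 (edgeR adjusted p = 0.217) and -0.26 without model replicate 56. In replicate 59 the 3p arm of the same hairpin, at 5177 CPM, was close to that of replicate 57, at 5603 CPM. Its counterpart mmu-miR-27b-5p was at 41.6, 68.2 and 43.2 CPM in controls and 32.6, 17.5 and 40.7 CPM in model libraries. All its model values were lower, by a margin under 1 CPM at the closest, and the log2 fold change was -0.75 (SE 0.37, 95% interval -1.62 to 0.11, edgeR adjusted p = 0.270). Without model replicate 57 it was -0.43.

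Fold changes between libraries depend on how the libraries are scaled, and a change of scaling moved all arms by like amounts. The counts made up 9.43%, 8.73% and 7.17% (controls) and 10.2%, 13.6% and 11.9% (model) of the totals by which the authors divided for RPM. That part was higher in every model library than in every control. Against TMM, log2 fold changes of the tested rows shifted by a median of 0.30 with total counts alone and by -0.29 with upper quartile factors. With those totals of the authors the median shift was 0.79. The log2 fold change of miR-24-3p was 0.78, 0.21 and 1.27 in that order, and was called with total counts (edgeR adjusted p = 0.0232) and under the authors' totals (edgeR adjusted p = 0.00177). miR-24-2-5p was called with the authors' totals only (1.38, edgeR adjusted p = 0.0143). For miR-27b-3p the values were -0.47, -1.07 and -0.00077, and for miR-23b-3p -0.35, -0.96 and 0.15. Both were called with upper quartile factors (edgeR adjusted p = 0.0363 for each), and miR-27b-3p also by DESeq2 (-0.77, adjusted p = 0.0423). The lower level of the b-cluster guides was therefore relative to the typical miRNA, and with the authors' totals it was not seen. Lower levels with TMM were also common among the 91 abundant rows, where log2 fold changes were negative for 62 and positive for 29. Their median of -0.22 was that of miR-23a-3p, while miR-23b-3p and miR-27b-3p were further below 0 (-0.66 and -0.77). Whether the b-cluster guides differ from that band was not tested.

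**Figure D2:**
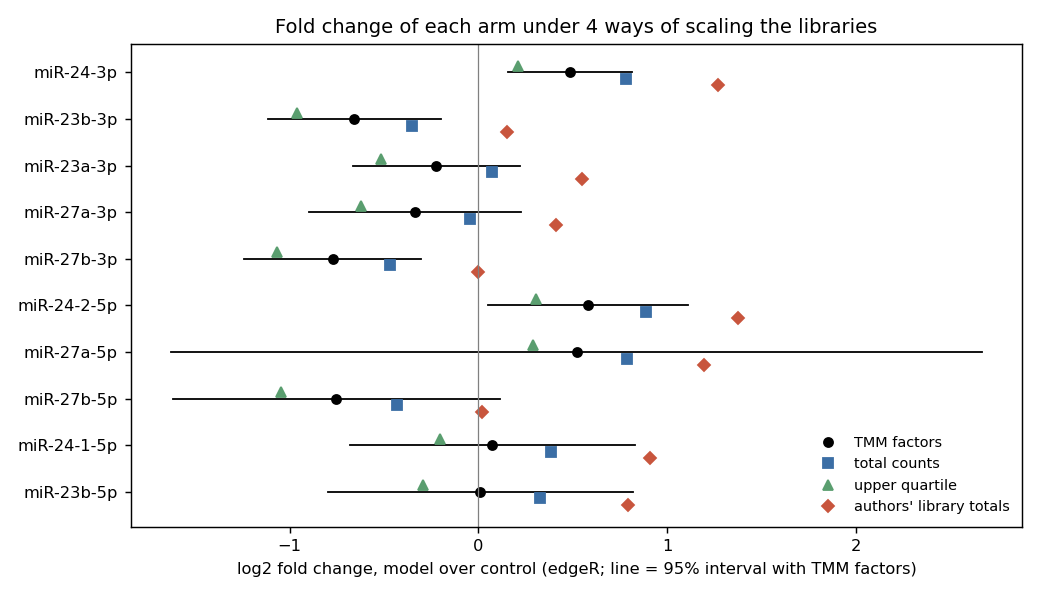
Log2 fold change (model over control, edgeR) of each arm under 4 scalings, with the 95% interval for TMM factors as a line. The symbols of an arm shift together, from upper quartile factors on the left to the authors' library totals on the right, and miR-24-3p and miR-24-2-5p stay above 0 throughout.

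Ratios within a library do not depend on scaling, and they compared the clusters directly. miR-23a-3p was counted 0.796, 0.724 and 0.642 times as often as miR-23b-3p in controls and 1.17, 0.901 and 0.901 times as often in model libraries. miR-27a-3p was counted 1.01, 0.965 and 0.826 times as often as miR-27b-3p in controls and 1.40, 1.31 and 1.11 times as often in model libraries. Both ratios were higher in every model library than in every control, with replicate 56 the highest each time and control replicate 45 the lowest. Single rows did not overlap between the groups for 31.1% of tested rows, and no such share was computed for ratios of other rows. The miR-23 and miR-27 ratios come from the same clusters and libraries, so they are not independent of each other. On the log2 scale with 1 count added to each arm, the difference was 0.46 (SE 0.16) for miR-23 and 0.44 (SE 0.13) for miR-27. The two-sided exact permutation p was 0.1 for each, the smallest that 3 against 3 libraries can give, and 0.2 when adjusted over the 4 ratios compared. Leaving out each library in turn kept these differences between 0.33 and 0.53 for miR-23 and between 0.36 and 0.54 for miR-27.

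The other paralogue ratios overlapped between the groups with all 6 libraries. miR-24-2-5p outnumbered miR-24-1-5p 13.2, 17.0 and 10.2 times in controls and 20.4, 17.3 and 16.1 times in model libraries, with overlap between the model value of replicate 59 and control replicate 44. The log2 difference was 0.45 (SE 0.23, exact permutation p = 0.2, adjusted p = 0.267). It was 0.63 without control replicate 44 (exact permutation p = 0.1) and 0.27 without control replicate 45. miR-27a-5p outnumbered miR-27b-5p 1.83 to 2.65 times in controls and 8.91 and 9.25 times in model replicates 56 and 57, while in replicate 59 the ratio was 0.279. Its log2 difference was 0.43 (SE 1.67, exact permutation p = 1), and 2.09 without replicate 59. Summed over their specific arms, a-cluster counts per 100 b-cluster counts were 88.9, 82.2 and 72.9 in controls and 134, 106 and 100.4 in model libraries, a sum that mostly repeats the guide ratios.

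**Figure D3:**
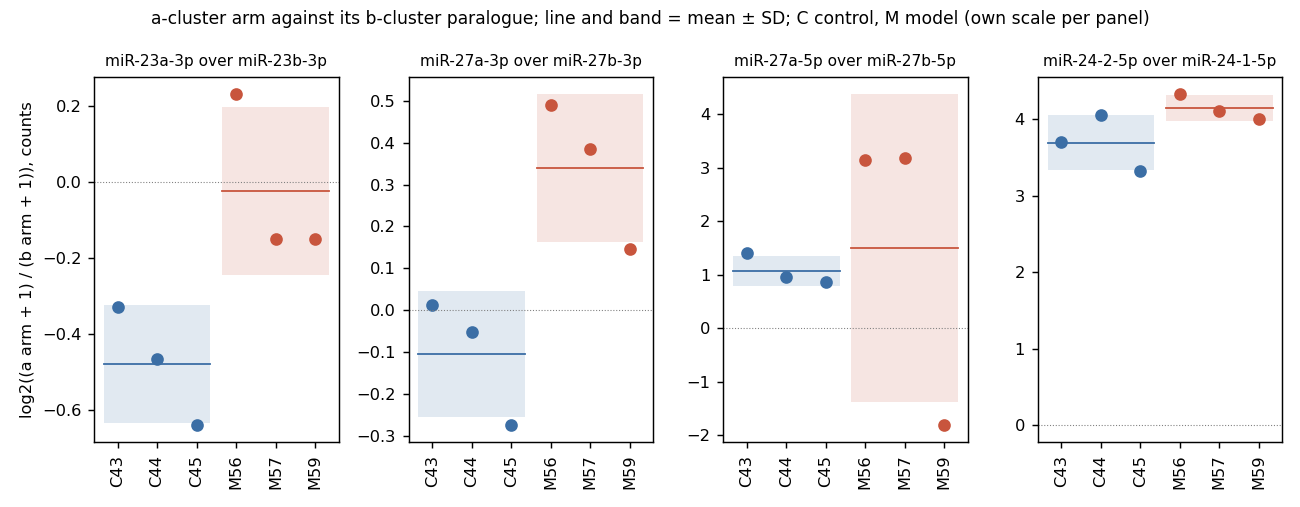
Log2 ratio of each a-cluster arm to its b-cluster paralogue (counts, 1 added to each) in the 6 libraries, with the mean as a line and ± SD as a band, each panel on its own scale. For miR-23 and miR-27 guides all model points lie above all control points, and model replicate 59 falls to -1.81 for the miR-27 passenger arms.

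The share of all miRNA counts held by the clusters as a whole overlapped between the groups. The 10 arms held 5.15%, 5.59% and 4.13% of counts in controls and 5.36%, 5.25% and 5.43% in model libraries (exact permutation p = 0.6, adjusted p = 0.8 over 4 shares). Control replicate 45 was the lowest, and the difference between groups of 0.39 percentage points became -0.024 without it. With the authors' library totals as denominator the difference was 0.21 percentage points for the 10 arms (exact permutation p = 0.1). It was 0.066 for the a-cluster arms (exact permutation p = 0.1) and 0.013 for the b-cluster arms (exact permutation p = 0.6). The counts made up only 7.17% to 13.6% of those totals, so every share is smaller on that base. The sizes of these differences therefore do not compare with those of shares of counts. The share of all counts held by miR-24-3p averaged 1.12% ± 0.145 over controls and 1.93% ± 0.161 over model libraries (n = 3 each, SD; exact permutation p = 0.1, adjusted p = 0.4). The b-cluster arms took 2.11% ± 0.427 and 1.61% ± 0.190 (exact permutation p = 0.2, adjusted p = 0.4). Their difference of -0.50 percentage points was -0.28 without control replicate 44 and -0.70 without control replicate 45 (exact permutation p = 0.1). The a-cluster arms took 1.73% ± 0.443 and 1.80% ± 0.0544 (exact permutation p = 0.9), and their difference of 0.076 percentage points turned to -0.17 without control replicate 45.

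Within the counts of the 10 arms, a measure formed after the values had been seen and given without a test, miR-24-3p made up 23.5%, 17.1% and 29.2% in controls and 39.3%, 34.0% and 35.2% in model libraries. By counts it was the largest component in all model libraries. In controls it came after miR-23b-3p in replicate 43, after miR-23b-3p and miR-23a-3p in replicate 44, and exceeded both in replicate 45. miR-23b-3p held 26.6%, 29.7% and 27.6% in controls and 16.1%, 23.0% and 22.1% in model libraries. miR-27b-3p went from 13.1% to 15.6% in controls to 8.87% to 10.0% in model libraries. The share of miR-23a-3p was 17.7% to 21.5% in controls and 18.9% to 20.7% in model libraries. Shares of a whole move together, so a higher share of miR-24-3p alone lowers the others. Ligation favours some ends over others, so the order of different arms within a library is an order of counts and may not be that of molecules.

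**Figure D4:**
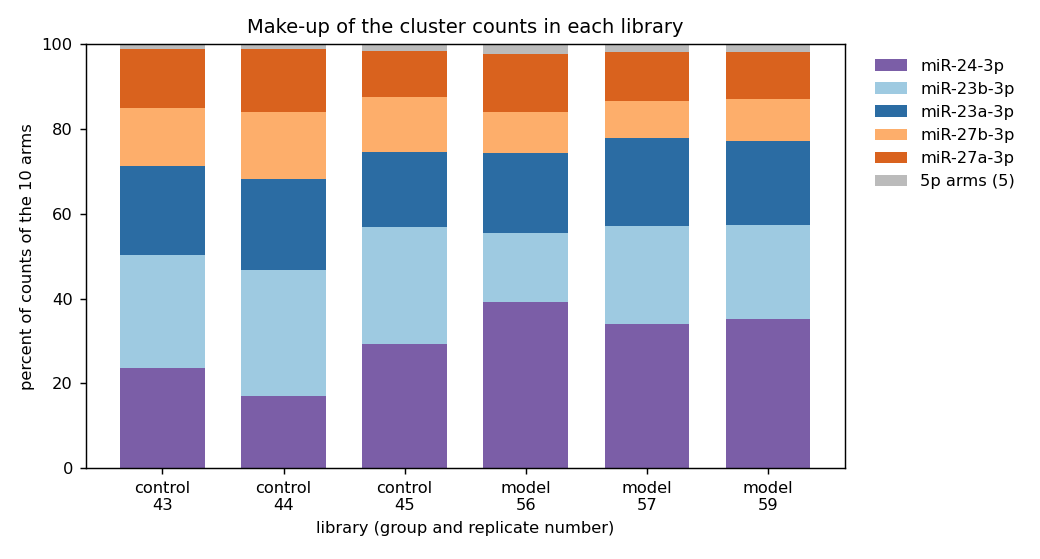
Percent of the counts of the 10 arms held by each guide arm and by the 5 passenger arms together, in each library. The miR-24-3p segment reaches 17.1% to 29.2% in controls and 34.0% to 39.3% in model libraries, and the miR-23b-3p and miR-27b-3p segments are smaller in the model libraries.

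The balance of 5p and 3p arms gave no call. Across 127 hairpins whose arms both averaged 10 counts or more, limma called 0 of the 5 tested from these clusters, where 0.787% of hairpins were called. At an unadjusted p under 0.05 there were 0 of 5, against 14.2% of hairpins. Per 100 counts of miR-24-3p, miR-24-2-5p was counted 3.47, 3.94 and 3.99 times in controls and 4.16, 3.78 and 4.25 times in the model group. As a log2 ratio, that pair was at -4.72 ± 0.11 and -4.62 ± 0.090 (SD, n = 3 each), a difference of 0.096 (SE 0.26, limma adjusted p = 0.938), with a 5p to 3p difference below its own SE. For miR-24-1 the difference was -0.35 (SE 0.32, limma adjusted p = 0.664), with the shared miR-24-3p as denominator. The miR-23b hairpin had 0.211, 0.281 and 0.194 5p counts per 100 3p counts in controls and 0.428, 0.276 and 0.437 in model libraries (log2 difference 0.71, SE 0.32, limma adjusted p = 0.338). The difference was -0.052 (SE 0.35, limma adjusted p = 0.981) for miR-27b and -0.068 (SE 1.04, limma adjusted p = 0.987) for miR-27a, the latter 1.26 without model replicate 59.

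**Figure D5:**
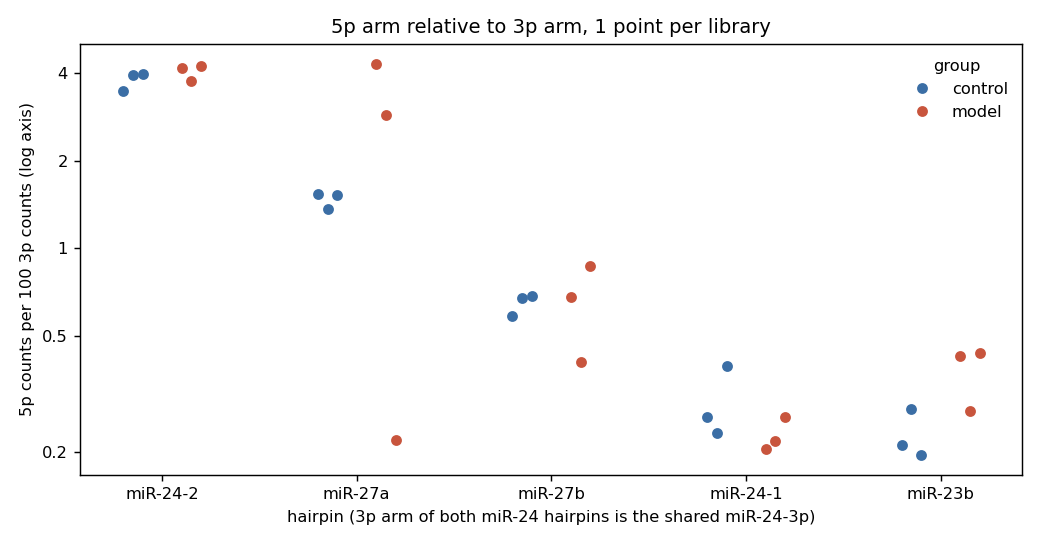
Counts of the 5p arm per 100 counts of the 3p arm (log axis) for the 5 tested hairpins, 1 point per library. The miR-24-2 points stay between 3.47 and 4.25 in all libraries, while model replicate 59 drops to 0.219 for miR-27a.

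The rows that followed the clusters most closely were found by the root mean square difference of centred log2 CPM over the 6 libraries, where 0 means an identical pattern. For the summed a-cluster arms these were miR-143-3p (0.080), miR-151-5p (0.085) and miR-6969-3p (0.085), against a median of 0.49 over 475 rows compared. For the summed b-cluster arms they were miR-1843a-3p (0.066), miR-30a-3p (0.079) and miR-3068-5p (0.12), against a median of 0.57. For miR-24-3p they were miR-299a-3p (0.096), miR-1198-5p (0.10) and miR-501-3p (0.11), against a median of 0.49. With 6 libraries and this many rows, close matches are easy to find, and the values are descriptions.

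The tissue held its known miRNAs, with miR-375-3p, a miRNA of endocrine cells, and acinar miR-148a-3p and miR-216a-5p at ranks 1, 10 and 15 by mean CPM. Markers of the cell types that the tissue can hold are given by list. Over all tested rows 1.00% were called higher and 0.200% lower, and each list holds few members. Of 12 miRNAs linked to vessel growth, 1 rose (miR-18a-5p) and 0 fell, with a median log2 fold change of 0.41, and the endothelial miR-126a-3p was at 39334 ± 4454 and 30566 ± 3495 CPM (edgeR adjusted p = 0.157; log2 fold change -0.36, SE 0.13). The other endothelial arm, miR-126a-5p, was at 4943 ± 884 and 5390 ± 557 CPM (edgeR adjusted p = 0.753; log2 fold change 0.12, SE 0.18). Of 7 leukocyte miRNAs, 1 rose (miR-223-3p) and 0 fell, with a median log2 fold change of 1.45. The leukocyte list took 0.417% to 0.714% of counts in controls and 0.599% to 1.33% in model libraries. Log2 fold changes were positive for 6 of its members and negative for 1, miR-150-5p, the most abundant by mean CPM. That arm was at 4404 ± 769 and 3454 ± 2228 CPM (edgeR adjusted p = 0.735; log2 fold change -0.35, SE 0.47). The 6 mesenchymal miRNAs gave 0 calls, a median of 0.034 and 1.82% to 2.83% against 2.43% to 2.61% of counts, and the 2 endothelial arms gave 0 calls and 3.82% to 4.11% against 3.74% to 4.11%. The 4 acinar miRNAs gave 0 calls and a median of -0.49, with shares of 4.81% to 7.95% in controls and 5.19% to 5.57% in model libraries. The highest acinar share and the lowest mesenchymal share were both those of control replicate 45, which also had the lowest share of the 10 arms. In whole tissue, fewer cells of a type and less RNA per cell cannot be told apart, and the part of these cell types in the levels of miR-23, miR-27 and miR-24 was not tested.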

How the data were processed

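Gel-purified small RNA (18 to 30 nt) was ligated to adapters with unique molecular identifiers and amplified, per the labels' protocols. The authors deposited whole-number read counts per mature arm, with no normalization per the file headers, and RPM values. In the latter, counts are over library totals between 22055639 and 27876715, recovered here from the deposited counts and RPM values of rows with at least 100 counts. The submitters' processing notes name Bowtie2 and GRCm38.p6 without a role. The sources used here do not say whether reads were collapsed on identifiers.

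Counts summed to 1943693 to 3006220 per library, so 3 counts, the limit that a count of 0 allows, equal 0.897 to 1.80 TMM-scaled CPM (counting error only). No library copied another (chi-square per degree of freedom 123 to 289 within groups). edgeR 4.0.16 in R 4.3.3 was run with filterByExpr (minimum count 10, total 15), TMM factors and robust quasi-likelihood fits. Arm ratios used limma 3.58.1, and DESeq2 1.42.0 was an alternative. The fit was tested on simulated data. Ratios and shares used two-sided exact permutation tests. Named were the 10 arms, rows sharing a guide's seed (among predicted rows 1 was tested, log2 fold change -0.33, edgeR adjusted p = 0.679), miR-3074 and miR-128-3p, the 3 nearest patterns, and part of the 2 most abundant rows per marker list. Islet (0 calls of 4, median log2 fold change -0.50) and erythroid (0 of 4, median -0.22) lists were also run. The islet list took 5.89% to 7.00% of counts in controls and 4.57% to 5.71% in model libraries, without overlap. The erythroid list took 0.914% to 1.35% in controls and 0.771% to 1.31% in model libraries. miR-18a-5p was named for its call. Members and lists were chosen with earlier results of these data known.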

Additional observations from a re-analysis of the deposited data

How the results depend on the processing

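No paired analysis was possible because the groups have no replicate number in common. Of 10 arms, 0 were called with TMM, RLE factors, a minimum mean of 10 CPM, identical sequences once, the newer dispersion and each library left out (0 to 0). Total counts called 1, upper quartile factors 2, the authors' totals 2, DESeq2 1 and no filter 2 (miR-23b-3p and miR-27b-3p). Over all rows 5 were higher and 1 lower. Higher rows numbered 17 with total counts, 124 with the authors' totals, 22 with DESeq2, 23 without a filter and 3 to 5 with a library left out. Lower rows numbered 8 with RLE, 39 with upper quartile factors, 2 with the authors' totals, 22 with DESeq2, 35 without a filter, 2 with the newer dispersion and 0 to 5 with a library left out.

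The log2 fold change kept its sign in all 15 alternatives for miR-24-3p (0.21 to 1.27) and miR-24-2-5p (0.31 to 1.38). For miR-27b-3p it ran from -1.07 to -0.00077. The latter value, with the authors' totals, had an SE of 0.30, so its sign carries no weight. Signs turned with the authors' totals for miR-23a-3p (0.55), miR-23b-3p (0.15), miR-27a-3p (0.41) and miR-27b-5p (0.018), and with total counts for miR-23a-3p (0.074). They turned with upper quartile factors for miR-23b-5p (-0.30), miR-24-1-5p (-0.20) and miR-128-3p (-0.26). With a library left out, values ran from -0.21 to 0.40 for miR-23b-5p, -0.15 to 0.42 for miR-24-1-5p, -0.26 to 1.11 for miR-27a-5p and -0.058 to 0.087 for miR-128-3p. The turns under other scalings went with the median shifts of all tested rows, 0.79 with the authors' totals, 0.30 with total counts and -0.29 with upper quartile factors. The cause of the turns with a library left out was not tested.

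Leaving out a library gave differences of -0.41 to 2.09 for the ratio of miR-27a-5p to miR-27b-5p, -0.29 to 0.25 for the miR-27b arm ratio and -0.88 to 1.26 for the miR-27a arm ratio. It gave -0.024 to 0.71 percentage points for the share of all 10 arms and -0.17 to 0.26 for the a-cluster arms. The b-cluster share difference was 0.013 percentage points with the authors' totals as denominator, a larger base on which all shares are smaller. For miR-23a, arm ratios could be fitted only with a minimum of 3 counts, where the log2 difference was 1.08 (SE 0.44, limma adjusted p = 0.366). Arms under about 100 counts per library are limited by depth.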
